A study of Mus musculus with 15 samples.

Results

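The genes described here are 9 members of the leukemia inhibitory factor (LIF) and interleukin-6 (IL-6) family: the ligand genes *Lif*, *Osm*, *Cntf* and *Clcf1* and the receptor genes *Il6st*, *Lifr*, *Osmr*, *Il6ra* and *Cntfr*. They were chosen by symbol, out of 35142 genes, and carry 43 of the 120537 transcripts that could be assigned to a gene. RNA was sequenced from 15 cultures of dissociated cerebellar cells of wild-type C57BL/6 mouse pups, taken between postnatal days 0 and 4 and grown in Neurobasal Plus medium with B27 Plus. From day 14 in vitro, recombinant murine IL-12p70 (the cytokine interleukin-12, IL-12, in its heterodimeric form) was present for 18 h at 30 ng/ml in 5 cultures and at 100 ng/ml in 5, and 5 cultures were unstimulated. The question was how cells of such cultures respond to IL-12. Neither the labels nor the methods say whether replicates came from separate litters, pups or plates, so that the tests measure the spread between these cultures, which may be partly technical.

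Cytokines of this family share the signal-transducing receptor chain gp130, encoded by *Il6st*. LIF joins gp130 to the LIF receptor (*Lifr*), mouse oncostatin M (*Osm*) acts mainly through its own receptor (*Osmr*), and ciliary neurotrophic factor (*Cntf*) and cardiotrophin-like cytokine factor 1 (*Clcf1*) first bind the chain encoded by *Cntfr*, which has no signaling domain, and then LIFR and gp130. IL-6 binds the chain encoded by *Il6ra* and then gp130. The receptor complexes activate Janus kinases (JAKs), the transcription factor STAT3 and the ERK kinases, and STAT3 induces the inhibitor *Socs3*, which blocks gp130. In nervous tissue the family is known for astrocyte differentiation and reactivity and for the survival of neurons and oligodendrocytes.

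Each culture gave between 25746096 and 38435850 estimated counts, and TMM factors, which scale the libraries to each other, lay between 0.981 and 1.02. The labels call the cells neurons, but RNA of several cell types was present: in unstimulated cultures the summed level of 14 microglia markers was 8985 to 12650 TPM (transcripts per 1000000), of 12 oligodendrocyte-lineage markers 6645 to 9860 TPM, of 11 astrocyte markers 3909 to 4386 TPM, and of 15 cerebellar neuron markers 180 to 242 TPM. Of the neuron markers, *Map2* was highest at 84.9 TPM on average and *Pcp2* lowest at 0.0412 TPM. The summed level of 11 T and NK cell markers was 3.97 to 7.43 TPM, of which *Cd4*, which microglia can also express, held 3.29 TPM on average, while *Ncr1* was at 0. In RNA of whole cultures, fewer cells of a type and less RNA per cell cannot be told apart. With both concentrations averaged, edgeR's quasi-likelihood test called 6 of the 14 microglia markers lower and 0 higher, 4 of 11 astrocyte markers higher and 1 lower, 4 of 12 oligodendrocyte-lineage markers lower, 4 of 13 neuron markers lower and 1 higher, 2 of 5 endothelial markers lower and 1 of 8 fibroblast markers higher. In the same comparison 11.9% of all genes were called in either direction and 6.71% were called higher.

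Every member was detected in every culture, and all 9 passed the filter of at least 1 CPM in at least 2 cultures, where CPM is the count per 1000000 counts of the library, scaled by TMM. Compared per length, in TPM, the most abundant member of unstimulated cultures was *Il6st* at 133.7 ± 15.7 TPM (SD, n = 5), followed by *Cntf* at 94.8 ± 8.48 TPM (SD, n = 5), *Cntfr* at 38.8 ± 2.58 TPM (SD, n = 5), *Osmr* at 22.2 ± 2.04 TPM (SD, n = 5) and *Il6ra* at 17.6 ± 1.55 TPM (SD, n = 5). *Clcf1* followed at 15.9 ± 0.957 TPM (SD, n = 5), *Lif* at 7.63 ± 0.709 TPM (SD, n = 5), *Lifr* at 7.34 ± 1.17 TPM (SD, n = 5) and *Osm* at 4.33 ± 0.639 TPM (SD, n = 5). The ranges over cultures overlapped between *Il6ra* and *Clcf1* and between *Lif* and *Lifr*, and were apart for the other neighbours in this order. Among the members, gp130 RNA was thus above that of each receptor chain it pairs with, and LIF and its receptor chain were at like levels.

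The ranks of *Cntf*, *Il6ra* and *Clcf1* depend on transcript length. For *Cntf*, the authors' files give its only transcript as 1073 bases, and the current annotation (GENCODE M39) gives it as 4744 bases. With the same estimated counts divided by the lengths of GENCODE M39, its level was 25.6 ± 2.27 TPM (SD, n = 5). *Cntfr* was then at 45.3 ± 3.16 TPM (SD, n = 5) and *Osmr* at 29.7 ± 2.51 TPM (SD, n = 5), and *Il6st* remained first at 122.6 ± 13.3 TPM (SD, n = 5). The counts were not estimated again, and reads from bases that the 1073-base model lacks would not be among them. The value of 25.6 TPM may thus be too low, and whether *Cntf* lies below *Cntfr* or *Osmr* cannot be told from it. A short gene model also weighs on *Il6st*: the 322-base transcript Il6st-205 held 0.673% to 1.32% of the estimated counts of the gene in a culture but 18.0% to 30.5% of its TPM. In *Lif*, the 390-base transcript Lif-203 held 0.585% to 2.52% of the counts but 7.97% to 27.5% of the TPM, which weighs on the TPM and transcript shares of *Lif*. The tests of genes and transcripts between groups below therefore use counts, given as CPM, in which length plays no part; transcript shares, summed marker levels and the limma alternative use TPM.

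Few of these genes passed the threshold (edgeR's quasi-likelihood test, false discovery rate (FDR) by Benjamini-Hochberg over 15360 genes, called below 0.05). With both concentrations averaged against unstimulated cultures, 2 of the 9 members were called, *Lif* and *Osmr*, both higher, where 11.9% of all genes were called and 6.71% were called higher. At 30 ng/ml the same 2 members were called, where 7.87% of all genes were called and 4.16% were called higher. At 100 ng/ml 0 of 9 were called by edgeR and by limma on log2(TPM + 0.1) and 1, *Lif*, by DESeq2, where edgeR called 9.77% of all genes. At that concentration 6 of the 9 members had an unadjusted edgeR p under 0.05, as had 25.6% of all genes. Both concentrations were compared with the same 5 unstimulated cultures. A count of 2 among 9 genes is too small to call anything particular to the family.

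**Figure D1:**
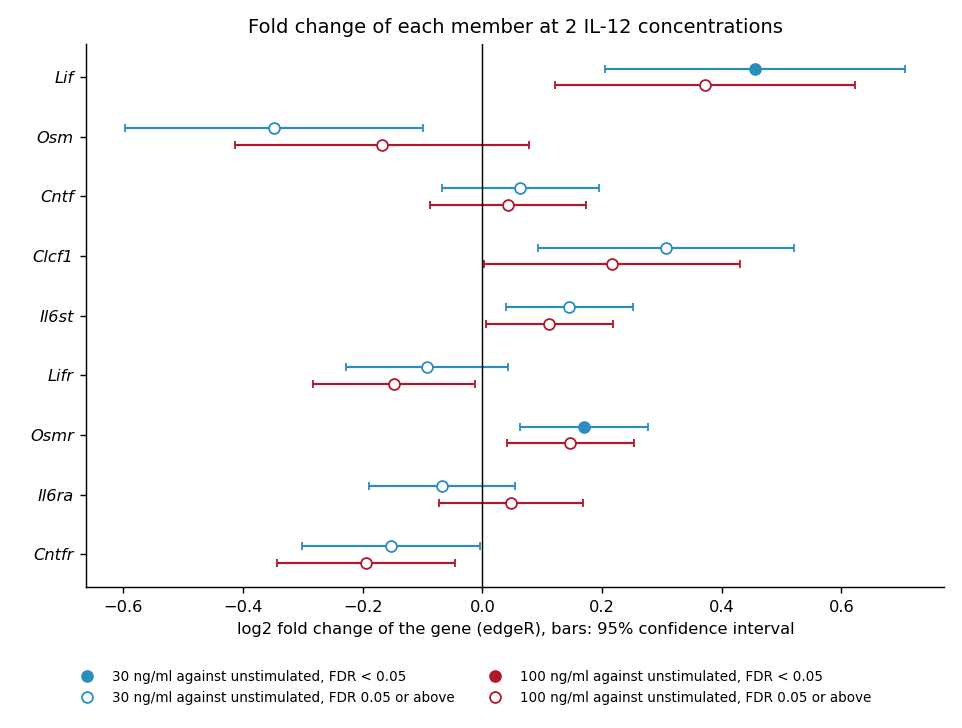
Log2 fold change of each member at 30 ng/ml (blue) and 100 ng/ml (red) against unstimulated cultures, on the x axis, with 95% confidence intervals as bars; filled points have an edgeR FDR under 0.05 and open points do not. *Lif* and *Osmr* at 30 ng/ml carry the filled points. *Lif*, *Clcf1*, *Il6st*, *Osmr* and, close to 0, *Cntf* lie to the right of 0 at both concentrations, and *Osm*, *Lifr* and *Cntfr* to the left. *Il6ra* lies to the left at 30 ng/ml and to the right at 100 ng/ml.

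*Lif* encodes the cytokine after which the family branch is named and lies on chromosome 11 from 4207557 to 4222514, on the plus strand (GRCm39, ENSMUSG00000034394). Unstimulated cultures 1 to 5 held 13.4, 16.8, 18.7, 17.1 and 16.1 CPM of *Lif*. Cultures with 30 ng/ml held 19.5, 19.0, 20.7, 27.3 and 25.8 CPM of *Lif*, and those with 100 ng/ml held 20.9, 18.7, 27.1, 19.2 and 20.1 CPM. All 10 stimulated cultures were above all 5 unstimulated ones, though barely so at 100 ng/ml, where the lowest stimulated and the highest unstimulated culture were both at 18.74 CPM after rounding. Such a separation over both concentrations was seen in 1.98% of all genes, at 30 ng/ml in 5.44% and at 100 ng/ml in 4.34%.

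*Lif* was 37.2% higher at 30 ng/ml (log2 fold change 0.46, standard error (SE) 0.12, edgeR FDR = 0.0251) and 33.3% higher in the mean of both concentrations (log2 fold change 0.41, SE 0.10, FDR = 0.0158). The change at 100 ng/ml, of 0.37 on the log2 scale (95% confidence interval 0.12 to 0.62) missed the threshold with an edgeR FDR of 0.0563. The counts behind these values were 421 to 513 per unstimulated and 479 to 835 per stimulated culture. The call at 30 ng/ml was lost without unstimulated replicate 1 or 5 (FDR = 0.0654 and 0.056) and without replicate 4 or 5 of that concentration (FDR = 0.0684 and 0.0718). Without unstimulated replicate 1, the lowest culture for *Lif*, the mean of both concentrations gave a log2 fold change of 0.34 with an FDR of 0.0552.

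Over the 15 cultures *Lif* was lower where oligodendrocyte-lineage markers (Pearson's r = -0.668, and -0.548 with group means removed) and neuron markers (-0.664 and -0.487) were higher. The summed level of the oligodendrocyte-lineage markers was 6645 to 9860 TPM in unstimulated cultures, 6670 to 8192 TPM at 30 ng/ml and 5937 to 7206 TPM at 100 ng/ml, and that of the neuron markers 180 to 242, 205 to 247 and 200.2 to 236 TPM. The neuron sum is weighted to *Map2* and *Tubb3*, at 84.65 and 67.25 TPM over all cultures, while r was taken with the mean log2 CPM of 13 tested markers. Over both concentrations the median log2 fold change of these 13 was -0.42, against -0.002 over all genes. That of the 12 oligodendrocyte-lineage markers was -0.15. With microglia and astrocyte markers the r of *Lif* was -0.398 (0.04 with group means removed) and 0.172 (-0.448). The part of these cell types in the change of *Lif* was not tested.

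Most of the *Lif* signal was divided between transcripts that begin at different sites. Lif-202 has 4 exons and starts 5′ of Lif-201, which has 3, and the pair shares 3773 bases and differs in the first part: 253 bases are found only in Lif-202 and 25 only in Lif-201. The first 30 coding bases of each are shown, with the start codon in capitals, because the annotated coding sequences start at different positions. The bases shown for Lif-201 are also part of Lif-202. The annotated coding sequence of Lif-202 begins at position 4216599 and has 609 bases, and that of Lif-201 begins at position 4218300, in an exon that both share, and has 474 bases.
Lif-202: ATGaaggtcttggccgcagggattgtgccc
Lif-201: ATGaaccagatcaagaatcaactggcacag

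The 250 bases before each start of *Lif*, the member with the largest fold change, are shown next (GRCm39, plus strand, chr11:4207307-4207556 for Lif-202 and chr11:4216845-4217094 for Lif-201). A match to the AP-1 motif TGANTCA, which Fos and Jun proteins bind, is in capitals. It begins 217 bases before the start of Lif-202.
Lif-202 upstream: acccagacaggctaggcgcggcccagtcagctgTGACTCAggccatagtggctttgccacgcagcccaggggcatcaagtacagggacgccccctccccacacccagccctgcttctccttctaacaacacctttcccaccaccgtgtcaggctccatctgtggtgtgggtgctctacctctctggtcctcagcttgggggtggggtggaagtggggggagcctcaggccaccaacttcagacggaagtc
Lif-201 upstream: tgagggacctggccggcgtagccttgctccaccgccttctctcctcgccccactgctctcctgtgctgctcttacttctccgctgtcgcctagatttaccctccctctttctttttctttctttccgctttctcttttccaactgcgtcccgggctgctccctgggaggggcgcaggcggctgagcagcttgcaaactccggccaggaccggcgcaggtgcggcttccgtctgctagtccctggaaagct

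Searched on both strands, neither window held the motif TTCNNNGAA of STAT proteins. Among the upstream windows of the leading transcripts of the 9 members and of Lif-202, 10 in all, 0 held the STAT motif and 2, those of Lif-202 and *Cntf*, held the AP-1 motif. Of the windows of equal length before the leading transcripts of all 15360 genes, 6.48% held the STAT motif and 4.97% the AP-1 motif.

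**Figure D2:**
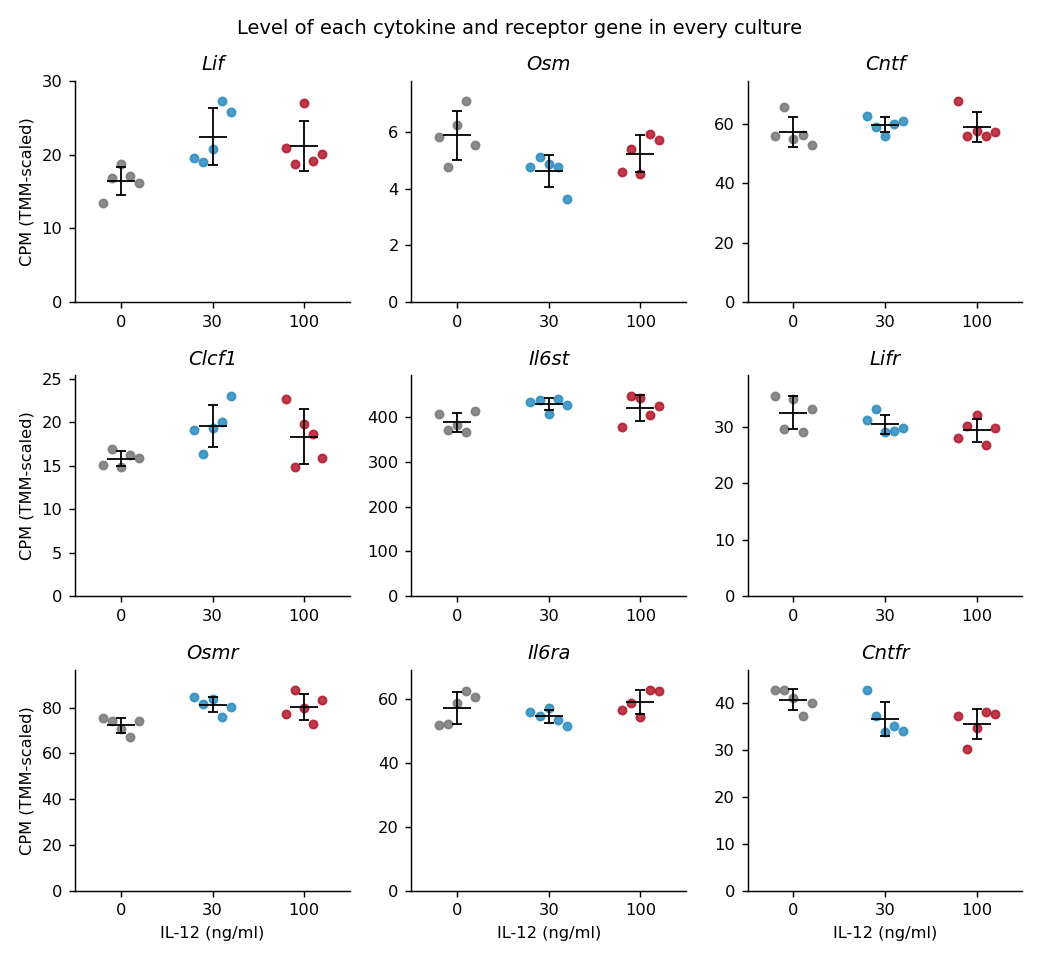
Level of each of the 9 genes in CPM (y axis, from 0) in every culture by IL-12 concentration (x axis); points are cultures, the black mark and bar give mean and SD of 5. For *Lif* every stimulated culture lies above every unstimulated culture, *Osmr* has 9 of 10 stimulated cultures above the highest unstimulated one, and the other 7 genes overlap more.

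Among the other ligands, none was called by the quasi-likelihood test in any comparison, and their directions differed. *Clcf1* (chromosome 19, 4264292 to 4273546), a cytokine that acts on neurons and B cells, held 15.2, 17.0, 14.8, 16.3 and 15.9 CPM in unstimulated cultures, 19.1, 16.4, 19.3, 20.0 and 23.1 CPM at 30 ng/ml and 22.7, 14.9, 19.8, 18.7 and 15.9 CPM at 100 ng/ml. Of the 10 stimulated cultures 7 were above the highest unstimulated one, and the groups overlapped. Over the 15 cultures *Clcf1* had an r of -0.721 with neuron markers (-0.587 with group means removed) and -0.65 with endothelial markers (-0.38). With astrocyte and fibroblast markers r was 0.215 (-0.297) and 0.029 (0.29). The part of these cell types in the values of *Clcf1* was not tested. In the mean of both concentrations its log2 fold change was 0.26 (95% confidence interval 0.07 to 0.45, edgeR FDR = 0.0631), and 5 of 23 alternatives, DESeq2 and edgeR's likelihood-ratio test among them, called it. Its last part shares 311 exonic bases with the gene model Gm45928 on the same strand, at 22 to 81 counts per culture, so that reads could be divided between them.

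*Osm* (chromosome 11, 4186420 to 4191026), a cytokine made mainly by myeloid cells, ends 16530 bases before *Lif* begins, with no protein-coding gene between. Its unstimulated cultures held 5.83, 4.77, 6.25, 7.10 and 5.54 CPM, those with 30 ng/ml 4.75, 5.11, 4.87, 4.78 and 3.65 CPM, and those with 100 ng/ml 4.61, 5.40, 4.54, 5.95 and 5.74 CPM. No stimulated culture exceeded the highest unstimulated one, 4 of the 10 were below the lowest, and the groups overlapped. The log2 fold change was -0.35 at 30 ng/ml (95% confidence interval -0.60 to -0.10, FDR = 0.079) and -0.17 at 100 ng/ml (-0.41 to 0.08, FDR = 0.39). Without unstimulated replicate 2, the lowest of its group, *Osm* was called lower at 30 ng/ml (FDR = 0.0316) and over both concentrations (FDR = 0.0452). These neighbouring genes thus had fitted changes of opposite sign, and only that of *Lif* passed the test.

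*Osm* moved with the microglia markers over the cultures. Pearson's r between its log2 CPM and the mean log2 CPM of 14 microglia markers was 0.85 over 15 cultures and 0.761 with group means removed. The pattern was not limited to microglia: r was 0.766 with endothelial markers (0.599 with group means removed) and 0.641 with neuron markers (0.466). At 30 ng/ml 7.87% of all genes were called in either direction. Of the microglia markers 9 of 14 were called lower at 30 ng/ml (median log2 fold change -0.42, against 0 over all genes) and 0 at 100 ng/ml (median -0.12, 2 at an unadjusted p under 0.05). Their summed level ranged from 8985 to 12650 TPM in unstimulated cultures, from 7171 to 8968 TPM at 30 ng/ml and from 8579 to 11260 TPM at 100 ng/ml, and no marker was at 0. The part of microglia content in the values of *Osm* was not tested.

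*Cntf* (chromosome 19, 12737353 to 12742996, minus strand), a cytokine that astrocytes and Schwann cells store in the cytosol, changed least among the ligands. It held 53.0 to 65.8 CPM in unstimulated cultures, 56.1 to 62.8 CPM at 30 ng/ml and 55.8 to 67.7 CPM at 100 ng/ml, with overlap throughout. The log2 fold change in the mean of both concentrations was 0.05, and its 95% confidence interval of -0.06 to 0.17 holds changes of little size in either direction (FDR = 0.571). The readthrough model Gm44505 shares 847 of its exonic bases on the same strand but had at most 21 counts in a culture.

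Among the receptors, *Osmr* was called and the common chain *Il6st* missed the threshold in the same direction. *Osmr* (chromosome 15, 6843053 to 6904450, minus strand, ENSMUSG00000022146), which pairs with gp130 to bind oncostatin M, held 75.6, 74.0, 70.8, 67.2 and 74.0 CPM in unstimulated cultures. Cultures with 30 ng/ml held 84.8, 81.5, 84.0, 76.1 and 80.5 CPM of *Osmr*, and those with 100 ng/ml held 77.1, 87.8, 79.8, 72.9 and 83.3 CPM. At 30 ng/ml all 5 cultures were above all unstimulated ones, as in 5.44% of all genes, and at 100 ng/ml 4 of 5 were. The rise was small, 11.6% in the mean of both concentrations (log2 fold change 0.16, SE 0.04, edgeR FDR = 0.026) and 12.5% at 30 ng/ml (log2 fold change 0.17, FDR = 0.0473). For *Osmr* at 100 ng/ml it was 0.15 (95% confidence interval 0.04 to 0.25, FDR = 0.0721).

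The call of *Osmr* in the mean of both concentrations was lost without unstimulated replicate 3 or 4 (FDR = 0.0702 and 0.0817) and with limma on log2(TPM + 0.1) (FDR = 0.201), while that at 30 ng/ml kept an FDR under 0.05 in 11 of 24 alternatives. Over the 15 cultures *Osmr* had an r of 0.669 with the mean of 11 astrocyte markers (0.601 with group means removed) and of -0.683 with the microglia markers (-0.57 with group means removed). The summed astrocyte markers were at 3909 to 4386 TPM in unstimulated cultures, 4640 to 5407 TPM at 30 ng/ml and 4346 to 4801 TPM at 100 ng/ml, with no marker at 0, and the part of astrocyte content in the change of *Osmr* was not tested. The 250 bases before its leading transcript Osmr-201, shown because the gene was called, held neither motif (GRCm39, minus strand, chr15:6904451-6904700).
Osmr-201 upstream: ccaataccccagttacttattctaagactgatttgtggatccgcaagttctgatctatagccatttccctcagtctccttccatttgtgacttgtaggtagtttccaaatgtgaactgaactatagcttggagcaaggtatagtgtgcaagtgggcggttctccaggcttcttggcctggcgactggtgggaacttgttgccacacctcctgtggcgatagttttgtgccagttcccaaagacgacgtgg

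*Il6st* (chromosome 13, 112600604 to 112646620) was the most abundant member also in CPM. Its unstimulated cultures held 406.4, 370.6, 382.3, 367.1 and 412.7 CPM, those with 30 ng/ml 434.2, 436.9, 405.4, 440.2 and 427.5 CPM, and those with 100 ng/ml 376.7, 447.6, 443.0, 404.2 and 424.4 CPM. Thus 7 of the 10 stimulated cultures were above the highest unstimulated one. The log2 fold change was 0.13 in the mean of both concentrations (95% confidence interval 0.04 to 0.22, FDR = 0.0651), a difference of 9.32% that this fit did not call. It was called in 4 of 23 alternatives, DESeq2, the likelihood-ratio test and the fit with library size alone among them.

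The chains that bind specific ligands had smaller or opposite changes, and none was called by the quasi-likelihood test. *Lifr* (chromosome 15, 7120095 to 7226970) lies 215644 bases from *Osmr* with no protein-coding gene between. It held 29.2 to 35.5 CPM in unstimulated cultures, 29.1 to 33.2 CPM at 30 ng/ml and 26.8 to 32.1 CPM at 100 ng/ml. Over both concentrations it had a log2 fold change of -0.12 (95% confidence interval -0.24 to -0.004, FDR = 0.168). The neighbouring receptor genes therefore had fitted changes of opposite sign, with only that of *Osmr* called.

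*Cntfr* (chromosome 4, 41657498 to 41697089, minus strand) held 42.6, 42.6, 40.9, 37.1 and 40.0 CPM in unstimulated cultures, 42.7, 37.2, 33.8, 35.0 and 34.1 CPM at 30 ng/ml and 37.3, 30.2, 34.5, 37.9 and 37.5 CPM at 100 ng/ml. Of the stimulated cultures 5 of 10 were below the lowest unstimulated one and 1 was above the highest. The log2 fold change in the mean of both concentrations was -0.17 (95% confidence interval -0.30 to -0.05, FDR = 0.071), and 3 of 23 alternatives, DESeq2 and the likelihood-ratio test among them, called it. With the oligodendrocyte-lineage markers, of which 4 of 12 were called lower over both concentrations, *Cntfr* had an r of 0.735 (0.584 with group means removed), and their part in its values was not tested.

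*Il6ra* (chromosome 3, 89771366 to 89820719, minus strand) held 52.0 to 62.5 CPM without IL-12, 51.7 to 57.1 CPM at 30 ng/ml and 54.4 to 62.8 CPM at 100 ng/ml. Over both concentrations the log2 fold change was -0.01, with a 95% confidence interval of -0.12 to 0.10 (FDR = 0.926). Like *Osm* it moved with the microglia markers, with an r of 0.697 over 15 cultures and 0.708 with group means removed, and *Osm* and *Il6ra* had an r of 0.696 with each other (0.759 with group means removed).

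**Figure D3:**
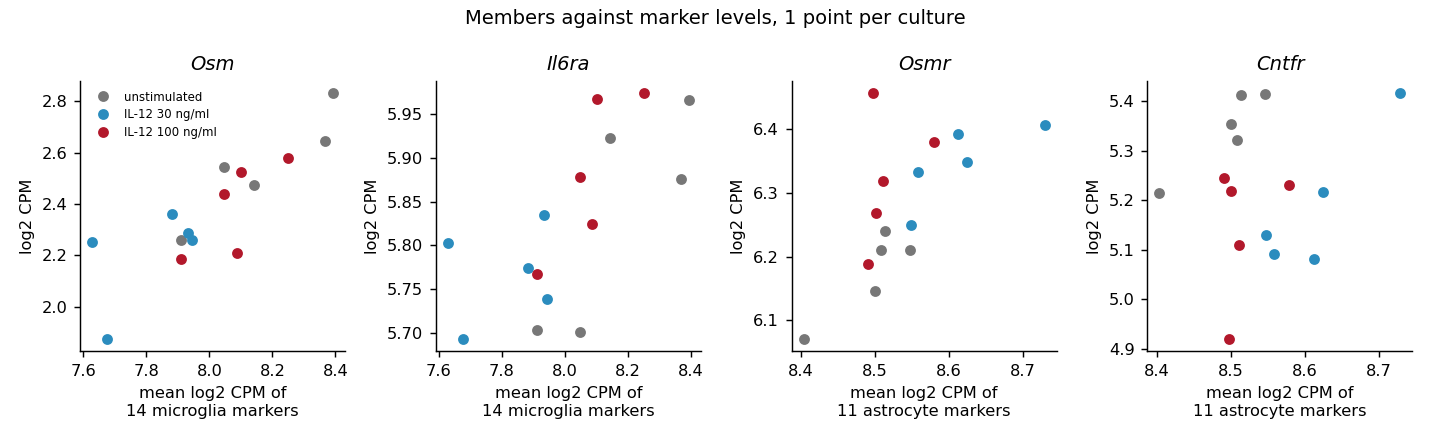
Log2 CPM of *Osm*, *Il6ra*, *Osmr* and *Cntfr* (y axes) against the mean log2 CPM of microglia or astrocyte markers (x axes), 1 point per culture, coloured by group. *Osm* follows the microglia markers most closely (r = 0.85 over 15 cultures), and *Osmr* lies higher where astrocyte markers do (r = 0.669); for *Cntfr* the r of 0.182 over all cultures is 0.715 with group means removed.

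The concentrations were not told apart by any member. Against 30 ng/ml, 0 of 9 members were called at 100 ng/ml by edgeR, DESeq2 or limma, and 0 had an unadjusted edgeR p under 0.05, where edgeR called 0.579% of all genes and 12.7% had an unadjusted p under 0.05. *Lif* had a log2 fold change of -0.08 between them (95% confidence interval -0.33 to 0.16) and *Osmr* of -0.02 (-0.13 to 0.08), intervals that leave room for a moderate difference of *Lif* and a small one of *Osmr*. The member with the lowest p was *Il6ra*, 8.32% higher at 100 ng/ml (log2 fold change 0.12, 95% confidence interval -0.01 to 0.24, edgeR FDR = 0.419). The ranges of *Lif* at 30 ng/ml (19.0 to 27.3 CPM) and at 100 ng/ml (18.7 to 27.1 CPM) nearly coincided.

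Genes known to respond to gp130 and STAT3 were higher more often than they were lower. Of 21 tested genes of this list, chosen with earlier results of these data known, 11 rose and 1 fell in the mean of both concentrations, with a median log2 fold change of 0.21 against -0.002 over all genes. In that comparison 6.71% of all genes were called higher. The inhibitor of metalloproteinases *Timp1* rose by 0.84 on the log2 scale (SE 0.07, edgeR FDR = 5.47e-07), the nuclear IkB protein gene *Bcl3* by 0.68 (SE 0.06, FDR = 8.05e-07), the serine protease inhibitor of reactive astrocytes *Serpina3n* by 0.66 (SE 0.07, FDR = 6.99e-06) and the metalloreductase *Steap4* by 0.86 (SE 0.12, FDR = 0.00024). *Syn1*, a gene of neurons, covers *Timp1* on the other strand, and whether the estimates used the strand of the reads is not given in the sources used here. The gene that fell was the immediate early gene *Fos* (log2 fold change -0.26, FDR = 0.00378). The survival genes *Mcl1* (log2 fold change -0.04, FDR = 0.534) and *Bcl2l1* (-0.03, FDR = 0.753) were the most abundant genes of the list that were not called.

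These response genes are not particular to the family, since NF-kB and other pathways are also known to induce several of them, and *Gfap*, which rose, is an astrocyte marker as well. At 100 ng/ml 10 rose and 1 fell, and at 30 ng/ml 6 rose and 0 fell. Of all genes 9.77% were called in either direction at 100 ng/ml, and 4.16% were called higher at 30 ng/ml. Between the concentrations 1 of the 21 differed, the adhesion molecule gene *Icam1*, higher at 100 ng/ml (log2 fold change 0.32, FDR = 0.00887), where 0.579% of all genes did. The feedback inhibitor *Socs3* rose from 31.6 TPM in unstimulated cultures, by 0.48 on the log2 scale (SE 0.06, FDR = 5.1e-05), at 30 ng/ml by 0.49 and at 100 ng/ml by 0.47. It was the 1 gene called over both concentrations among 9 feedback inhibitors and phosphatases, a share like the 11.9% of all genes called in either direction. Of those not called, the phosphatase genes *Ptpn6* (-0.07, FDR = 0.608) and *Ptpn1* (-0.04, FDR = 0.618) were the most abundant.

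In the signaling chain itself none rose over both concentrations. Of 18 genes between gp130 and its transcription factors 0 rose and 2 fell, where 11.9% of all genes were called in either direction, a like share: the adaptor *Grb2* (log2 fold change -0.19, SE 0.04, FDR = 0.00794) and the ERK pathway kinase *Map2k1* (-0.10, SE 0.03, FDR = 0.045). At 100 ng/ml, in counts named after their values were seen, *Stat5a* rose (0.26, FDR = 0.0401) and *Gab1* fell (-0.22, FDR = 0.0287) with these 2. The ERK gene *Mapk3* (-0.12, FDR = 0.0894) was not called. *Stat3*, named after its values were seen, was at 102.2 TPM in unstimulated cultures, with a log2 fold change of 0.02 (SE 0.03). Of 4 genes for the shedding of receptors from the cell surface, 0 were called by the quasi-likelihood test. DESeq2, limma, the likelihood-ratio test and some other settings called 1, *Rhbdf1*, a cofactor of *Adam17*, which was also the 1 with an unadjusted edgeR p under 0.05 (log2 fold change 0.19, FDR = 0.0511; named after its value was seen). Of all genes 27.2% had such an unadjusted p over both concentrations. *Adam10* and *Adam17* had log2 fold changes of -0.09 (FDR = 0.309) and -0.07 (FDR = 0.417).

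Of 11 further cytokines and receptors of the family, 5 were abundant enough to be tested. In the mean of both concentrations 0 of the 5 were called by edgeR and by DESeq2 and 1 by limma. An unadjusted edgeR p under 0.05 was seen for 1 of them, as for 27.2% of all genes. *Il11ra1*, which encodes the chain that binds IL-11 and lies 2899 bases from *Cntfr*, was at 82.8 TPM in unstimulated cultures, with a log2 fold change of 0.09 (FDR = 0.298). *Ebi3*, a subunit of IL-27 and IL-35, was at 11.7 TPM (log2 fold change 0.03, FDR = 0.91). The ligand genes *Il6* and *Il11*, at 0.24 and 0.21 TPM in unstimulated cultures, did not pass the filter, so that receptor chains for both were present with little RNA of the ligands.

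**Figure D4:**
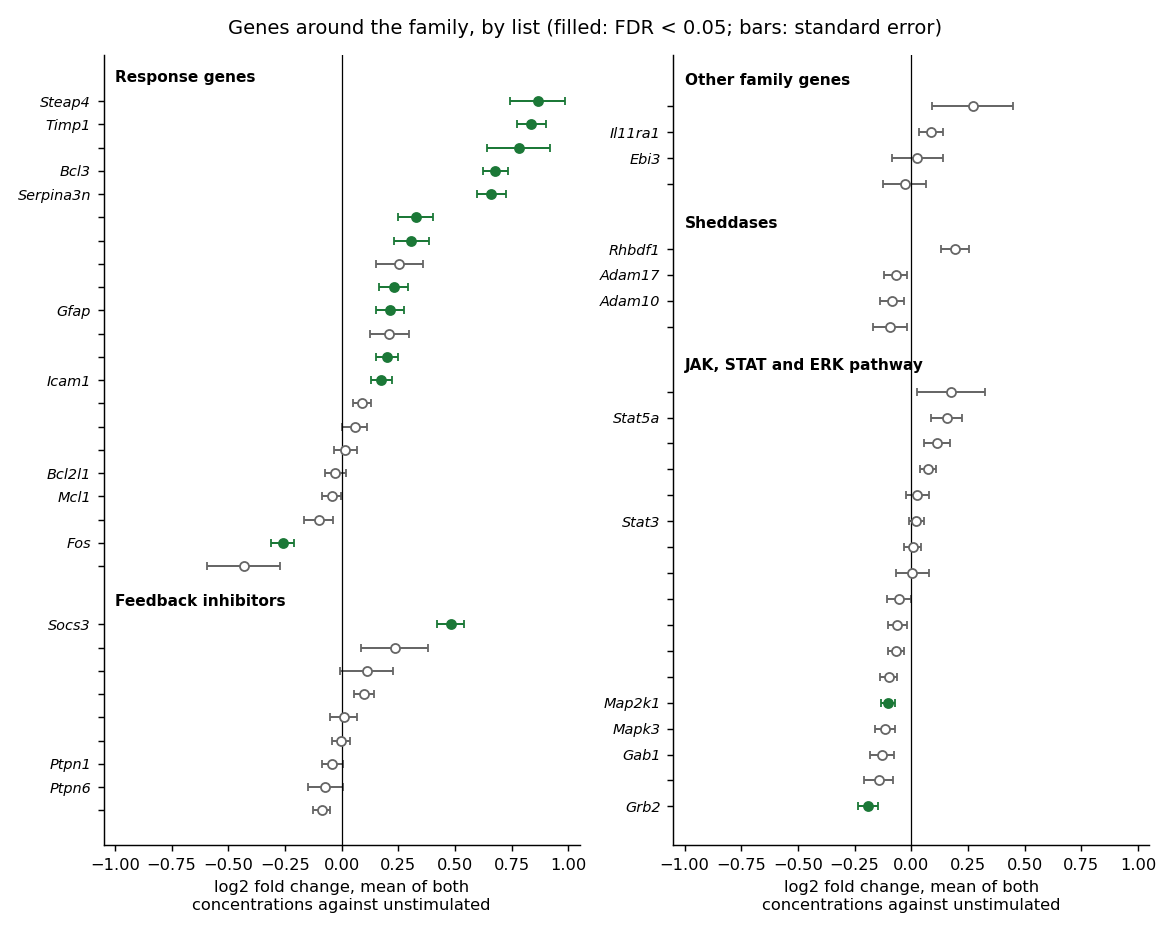
Log2 fold change against unstimulated cultures (x axis, both concentrations averaged) for tested genes of 5 lists, those named in the text being labelled, with standard errors as bars; filled points have an edgeR FDR under 0.05. In the list of response genes 11 filled points lie to the right of 0 and 1 to the left, *Socs3* is the filled point among the feedback inhibitors, and *Grb2* and *Map2k1* lie to the left in the signaling list.

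Transcripts were also taken apart, 41466 in all after the same filter, of which 0.784% were called in the mean of both concentrations. Of the 43 transcripts of the 9 members 23 were tested and 0 were called by edgeR, and DESeq2 called 1, Osmr-201. Osmr-201 had a log2 fold change of 0.16 (SE 0.04, edgeR FDR = 0.124), close to that of its gene, of whose TPM it held 84.7% to 98.6% in a culture. Both Lif transcripts had positive fold changes, 0.46 for Lif-201 (95% confidence interval 0.03 to 0.89, FDR = 0.446) and 0.33 for Lif-202 (-0.06 to 0.72, FDR = 0.608), with intervals that overlapped. Estimates of transcripts that share most of their bases take reads from each other, and over the cultures the CPM of Lif-201 and Lif-202 had an r of -0.143, or -0.425 with group means removed.

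The share of a gene's TPM held by its leading transcript was compared between the 10 stimulated and 5 unstimulated cultures for the 8 members with more than 1 transcript (two-sided exact permutation test over cultures, Benjamini-Hochberg over 8). Lif-201 held 46.0%, 54.6%, 53.2%, 46.0% and 48.1% of *Lif* in unstimulated cultures, 50.7%, 36.8%, 52.1%, 42.4% and 67.5% at 30 ng/ml and 41.4%, 42.0%, 58.2%, 52.6% and 55.2% at 100 ng/ml. The stimulated mean was higher by 0.29 percentage points (exact permutation p = 0.952, adjusted p = 0.999), with a wider spread among stimulated cultures. The largest difference was that of the leading *Clcf1* transcript, which has the full coding sequence of 225 codons. It held 30.0%, 27.4%, 46.0%, 48.3% and 33.7% without IL-12, 49.6%, 53.9%, 36.9%, 27.7% and 28.1% at 30 ng/ml and 48.3%, 52.6%, 54.5%, 50.4% and 60.7% at 100 ng/ml, a mean difference of 9.18 points (exact permutation p = 0.133, adjusted p = 0.999). Of the 8 shares 0 differed, and 0 had an unadjusted p under 0.05. Il6ra-201, whose coding sequence is 1 codon longer than that of Il6ra-202, held 61.5% to 70.4% of the TPM of *Il6ra*. This lead depends on length, since the authors' files give Il6ra-201 as 3343 bases and GENCODE M39 gives it as 8642. In estimated counts Il6ra-202 held the larger part, 53.4% to 62.9% of the gene in a culture.

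Forms other than the full-length coding ones were also estimated. Lifr-207, which ends early with 719 of the 1092 codons of the full receptor chain, had 27.9 to 110 counts in a culture, or 3.27% to 11.1% of the counts of *Lifr*, and a log2 fold change of -0.19 (95% confidence interval -0.88 to 0.50, FDR = 0.962). Mice are known to make a soluble form of the LIF receptor, but whether this transcript encodes it cannot be read from these data. A *Clcf1* transcript annotated with a retained intron held 25.1% to 47.0% of the counts of that gene, and another annotated as a target of nonsense-mediated decay 0% to 33.6%.

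**Figure D5:**
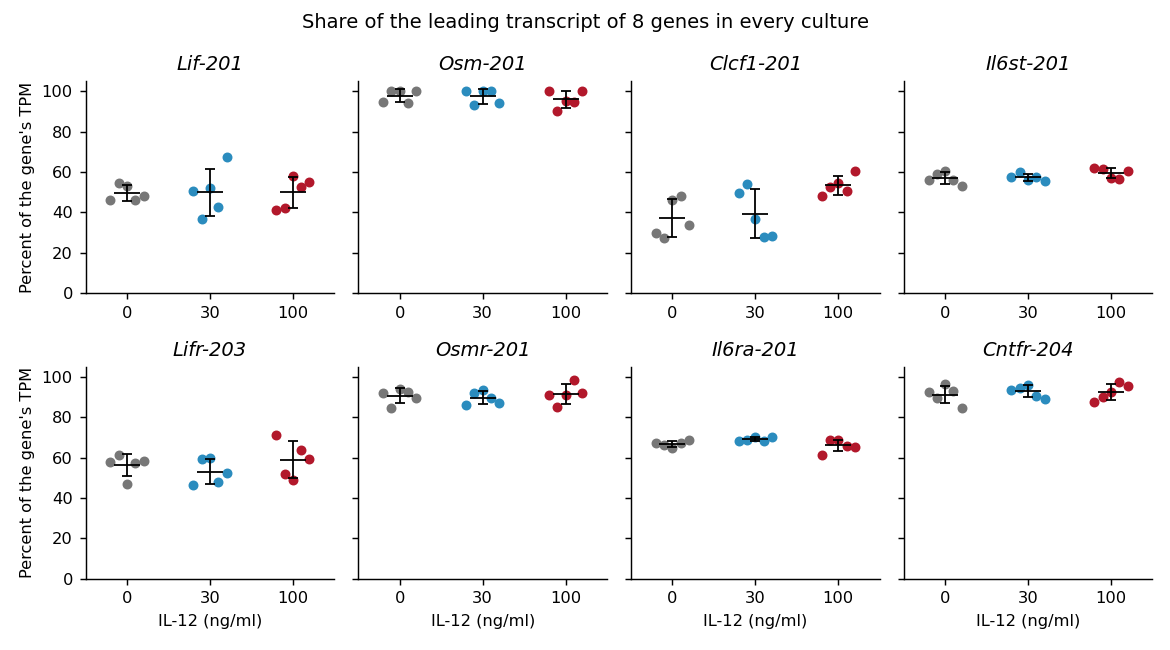
Percent of the gene's TPM held by its leading transcript (y axis, 0 to 100) in every culture by IL-12 concentration (x axis), for 8 genes; points are cultures, the black mark and bar give mean and SD of 5. The shares of Osm-201, Osmr-201 and Cntfr-204 stay above 84% in all cultures, Lif-201 is spread from 36.8% to 67.5%, and the *Clcf1* transcript has its highest mean, 53.3%, at 100 ng/ml.

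The genes whose pattern over the 15 cultures was most like that of *Lif*, among 14174 protein-coding genes, were the transcription factor gene *Tead2* (Pearson's r = 0.932, and 0.869 with group means removed), the small GTPase gene *Rab29* (0.925 and 0.854) and the cyclin gene *Ccnd3* (0.909 and 0.809). Those most like *Osmr* were the growth factor gene *Fgf2* (0.919 and 0.87), *Mfap3l* (0.917 and 0.832) and *Frrs1l* (0.916 and 0.838). These are descriptions over 15 cultures that share the stimulation, picked as the highest of many. Among the members, *Lif* and *Clcf1* had an r of 0.709 (0.501 with group means removed) and *Il6st* and *Osmr* of 0.729 (0.487 with group means removed), while *Lif* and *Osmr*, the called members, had an r of 0.307 that turned to -0.438 with group means removed.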

How the data were processed

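RNA-seq of 15 cultures, in 3 groups of 5, was analysed. According to the methods and the submitters' processing notes, the authors aligned single-end reads of stranded, poly(A)-selected libraries with STAR 2.7.8a to GRCm39 and counted genes with featureCounts. The deposited files differ: per the file headers each of 121798 transcripts has an estimated count and a TPM beside its lengths, in a layout used by pseudoalignment programs; the program and its use of strand are not given in the sources used here. Transcript values were added up per gene through the identifiers of GENCODE M39, which matched 99.0% of the transcripts; the others, left out, held 0.677% to 0.712% of the counts. Expected counts were rounded. Depth was 25746096 to 38435850 counts per culture.

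The 15360 genes that reached 1 CPM in 2 or more cultures were scaled by TMM and tested with edgeR 4.0.16 (R 4.3.3) by the quasi-likelihood test in 1 fit of the 3 groups, with FDR by Benjamini-Hochberg over all genes. Transcript shares were compared by exact permutation over cultures (Python 3.11.15). DESeq2 1.42.0, limma 3.58.1, other scalings, filters and fits, a replicate block and leaving out each culture were alternatives; TPM with the lengths of GENCODE M39 was added after seeing the data. Fits were tested on simulated data. The members and lists were chosen with earlier results of these data known. Named were all members and, from each list, up to 4 called genes of lowest FDR and up to 2 of highest TPM not called, and for each called member the 3 protein-coding genes of highest Pearson's r; marker lists are given by counts. Some genes of the lists are counted but not reported here. Windows before start sites were read from GRCm39. Replicates of a group differed by more than counting noise (chi-square per degree of freedom of 5.27 to 31.2 over genes), so each was counted.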

Additional observations from a re-analysis of the deposited data

Results flagged for a closer look

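Of 51 groups of 5 cultures, taken over the levels of the members and the shares of their leading transcripts, 5 had 1 culture far from the other 4 (Dixon's test, critical value 0.71), where chance flags about 5% of groups. *Lif* at 100 ng/ml was at 27.05 CPM in replicate 3 and between 18.74 and 20.87 CPM in the other 4. *Osm* at 30 ng/ml was at 3.646 CPM in replicate 5 and between 4.753 and 5.109 CPM in the others, and the microglia markers of that culture, at a mean log2 CPM of 7.68, were the second lowest of the 15 cultures. *Cntf* was at 65.82 CPM in unstimulated replicate 2, the other 4 being between 53.0 and 56.11 CPM, and at 67.68 CPM in replicate 1 of 100 ng/ml, the other 4 being between 55.79 and 57.77 CPM. The share of Lifr-203 in the TPM of *Lifr* was 47.1% in unstimulated replicate 3 and between 57.3% and 61.3% in the others. Without replicate 3 of 100 ng/ml the log2 fold change of *Lif* at 100 ng/ml was 0.27 (edgeR FDR = 0.152), against 0.37 (FDR = 0.0563) with it, and that over both concentrations was 0.36 (FDR = 0.0199). The causes were not tested.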

How the results depend on the processing

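The number of members called in the mean of both concentrations was 2 in edgeR's quasi-likelihood test, 5 with DESeq2 and with the likelihood-ratio test (*Lif*, *Clcf1*, *Il6st*, *Osmr* and *Cntfr*), 1 with limma on log2(TPM + 0.1) and 1 to 3 with 1 culture left out. At 30 ng/ml it was 2, and 4 with DESeq2 (*Lif*, *Osm*, *Clcf1* and *Osmr*), 1 with RLE factors, without a filter on low counts and with limma, and 0 to 3 with a culture left out: 0 without unstimulated replicate 1 or 5 or replicate 5 of 30 ng/ml. At 100 ng/ml it was 0, and 1 (*Lif*) with DESeq2, without a filter and with the likelihood-ratio test, and 0 to 1 with a culture left out. Between the concentrations it was 0 in every alternative. Of member transcripts 0 were called, 1 with DESeq2 (Osmr-201), and 0 with every culture left out; of transcript shares 0 differed in every alternative. Members other than *Lif* and *Osmr* were called by some tools, with some settings or without some cultures. Over both concentrations, *Lif* kept a log2 fold change between 0.34 and 0.47 and *Osmr* one between 0.13 and 0.17 in all 23 alternatives, with an FDR under 0.05 in 22 and 20 of them. No fold change that was called changed sign; that of *Il6ra*, near 0, did in 7 of 23. The number of all genes called over both concentrations, 1832, was 1211 with limma and 1203 to 2837 with 1 culture left out, highest without replicate 2 of 100 ng/ml and lowest without unstimulated replicate 5. At 100 ng/ml, 1500 became 827 with limma, 946 with only the groups compared and 940 to 2932 with a culture left out; at 30 ng/ml, 1209 became 673 to 1668 with a culture left out; between the concentrations, 89 became 247 with DESeq2, 253 with the likelihood-ratio test, 51 with limma and 38 to 147 with a culture left out. Of all transcripts 325 were called, 1476 with DESeq2, 132 without a filter and 150 with the replicate block and 151 to 575 with a culture left out. Of the genes called at 30 ng/ml 52.9% were higher, and 63.1% with library size alone. Over both concentrations the response genes called higher numbered 8 (without unstimulated replicate 1) to 12, at 30 ng/ml 5 to 9 and at 100 ng/ml 7 to 12. Why tools differed was not tested.

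With the replicate number as a replicate block, 0, 2, 0 and 2 members were called at 100 ng/ml, at 30 ng/ml, between the concentrations and in the mean, the same counts as without it, and 0 transcripts and 0 shares. No clear pairing of the cultures by number was seen: the correlation of same-numbered cultures' deviations was over 0.1 in 2 of 15 pairs (-0.189 to 0.274), and a culture was closest to its own number in 1 of 15. A weak pairing could be missed by this check. With 103 to 223 counts per culture, *Osm* is the member whose precision counting limits most.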
